A study of Mus musculus with 6 samples.

Results

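The insulin-like growth factor (IGF) axis was examined through 9 genes: the binding proteins Igfbp2, Igfbp3, Igfbp4, Igfbp5, Igfbp6 and Igfbp7, the ligands Igf1 and Igf2, and the receptor Igf1r. They were picked by name from the 53465 genes of the table, and all 9 were listed there. Polyadenylated RNA had been sequenced from EMT6 cells, a mouse mammary carcinoma line, grown in culture. Of 6 libraries, 3 came from parental cells kept with an isotype control antibody (PVITRO) and 3 from cells grown under an anti-PD-L1 antibody (PTRVITRO), each at 0.5 μg/ml for more than 4 weeks. All cells grew in RPMI with fetal bovine serum, itself a source of growth factors. The treated cells are labelled resistant, but they are a single line selected in a dish without immune cells. The labels do not say that the libraries of a group came from separate cultures, and the authors call their replicates technical unless otherwise specified. The p-values below therefore measure only the spread between these libraries, which may be technical.

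IGF1 and IGF2 are secreted peptides that bind IGF1R, a receptor tyrosine kinase, and drive growth and survival through the PI3K, AKT and mTOR proteins. The IGF binding proteins are secreted carriers that hold the ligands away from the receptor or deliver them to it, and proteases such as PAPP-A release the ligand by cutting them. In mammary gland and breast cancer the binding proteins come from epithelial, stromal and endothelial cells, and several also act on matrix or on cell surface receptors without binding IGF.

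Library totals ran from 17757341 to 32426739 estimated counts. A level is given as CPM, counts scaled to library size and by the upper quartile, as mean ± SD over 3 libraries of a group. Of 14217 genes tested, 35 were called at an adjusted p below 0.05 (edgeR quasi-likelihood test, Benjamini-Hochberg), which is 0.246% of the tested genes. The epithelial keratin Krt8 stood at 1031 to 1128 CPM and the mesenchymal filament Vim at 1840.5 to 1972 CPM, while Cdh1, a defining epithelial adhesion gene, had at most 0.0413 CPM and Epcam 1.24 to 2.41 CPM. The leukocyte markers Ptprc, Adgre1, Cd8a and Nkg7 were at 0 in all 6 libraries, Csf1r, Itgam and Cd3e had at most 0.0928 CPM, and Cd68, a lysosomal gene not limited to leukocytes, had 11.3 to 13.2 CPM. The summed level of 9 mesenchymal markers ran from 4361 to 4535 CPM in PVITRO and from 4004 to 4337 CPM in PTRVITRO, and the groups did not overlap. Of 7 such markers tested, edgeR called 1 lower (Col3a1), against 0.148% of all tested genes called lower. Log2 fold changes were below 0 for 5 and above 0 for 2. An unadjusted p below 0.05 was found for 5, all lower in PTRVITRO, against 11.4% of all tested genes and 6.13% for those lower. The 8 epithelial markers summed to 1542 to 1665 CPM in PVITRO and 1628 to 1708 CPM in PTRVITRO, which overlapped. Of 6 epithelial markers tested, edgeR called 0 and 3 had an unadjusted p below 0.05, against 0.246% and 11.4% of all tested genes. Of these 3, 2 were higher and 1 lower in PTRVITRO. Log2 fold changes of the 6 were above 0 for 5 and below 0 for 1.

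EMT6 cells expressed 3 of the 6 binding proteins, and the other 3 were silent in both groups. Igfbp4, Igfbp6 and Igfbp7 were among the most abundant transcripts of these cells, each above 96.6% of the tested genes in level per length. Igfbp2, Igfbp3 and Igfbp5 had a count of 0 in all 6 libraries. The receptor Igf1r was expressed at a middling level, Igf1 was barely detected, and Igf2 had at most 3 counts in a library. Thus 5 of the 9 genes had enough counts to be tested, and 4 did not.

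**Figure D1:**
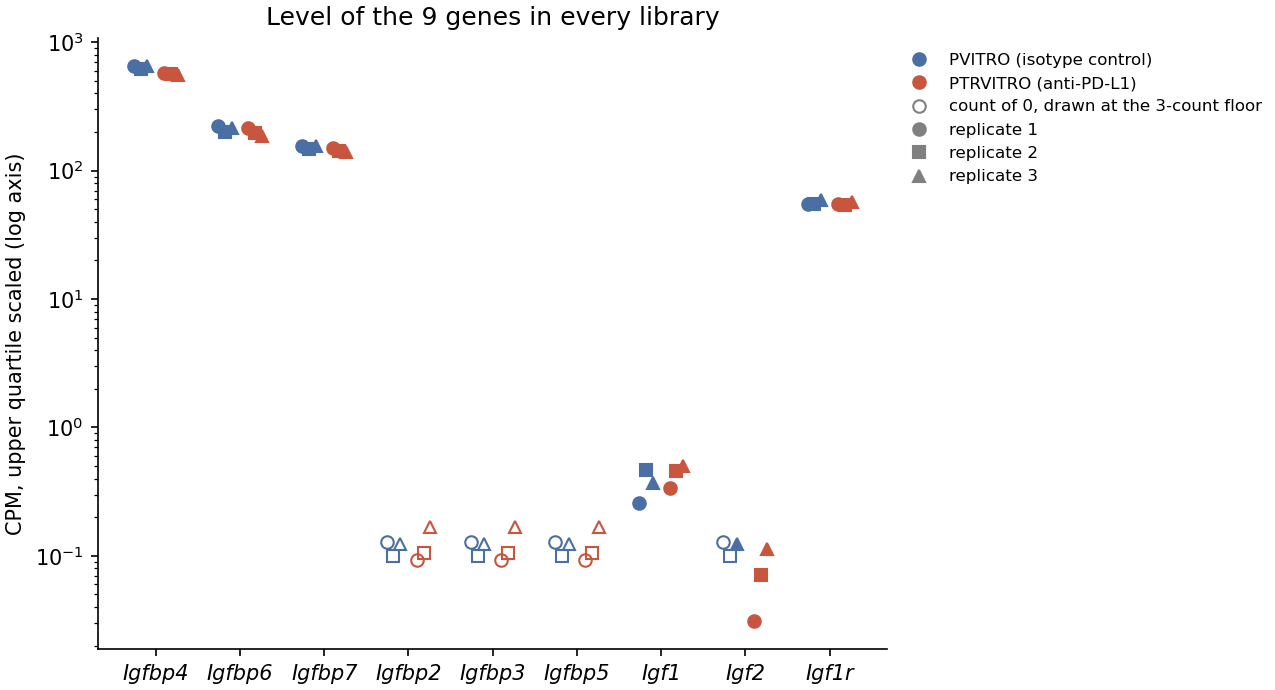
Level of each of the 9 genes in every library, in CPM on a log axis, with PVITRO in blue, PTRVITRO in red and a symbol shape for each replicate number. Open symbols are counts of 0 drawn at the level of 3 counts: Igfbp2, Igfbp3 and Igfbp5 are open in all 6 libraries, while Igfbp4 lies between 558 and 659 CPM.

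A count of 0 still allows up to 3 counts, which is 0.0925 CPM in the deepest library and 0.168 CPM in the shallowest, counting error only. Set per kilobase of exon against that limit, the Igfbp4 level was at least 1386-fold higher than that of Igfbp2 in every library. The same ratio was at least 2348-fold for Igfbp3 and at least 4505-fold for Igfbp5. Igfbp3 and Igfbp5 are the binding proteins that form the large circulating complex with the acid-labile subunit Igfals, which itself had at most 0.0413 CPM. Igfbp2, which carries an integrin-binding motif, lies next to Igfbp5 on chromosome 1, with 5457 bases between them. Igfbp1, the liver-expressed relative of the family, lies next to Igfbp3 on chromosome 11, with 3539 bases between them, and it too had a count of 0 in all 6 libraries. Both neighbouring gene pairs were therefore without a single count.

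The promoters of the expressed Igfbp4 and Igfbp7 and of the silent Igfbp3 are shown because all of them are rich in CG dinucleotides, although their transcript levels lie so far apart. Each line is the 250 bases before the RefSeq start (GRCm38.p6), read 5′ to 3′ on the strand of the gene, with CG in capitals. Igfbp4 covers chr11:99040994-99041243 on the plus strand, Igfbp7 chr5:77408046-77408295 on the minus strand, and Igfbp3 chr11:7213924-7214173 on the minus strand.
Igfbp4: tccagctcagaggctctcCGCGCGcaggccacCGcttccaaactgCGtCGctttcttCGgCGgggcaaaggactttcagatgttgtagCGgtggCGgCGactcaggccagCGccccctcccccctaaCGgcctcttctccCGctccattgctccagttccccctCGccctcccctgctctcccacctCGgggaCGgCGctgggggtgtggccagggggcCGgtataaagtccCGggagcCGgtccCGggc
Igfbp7: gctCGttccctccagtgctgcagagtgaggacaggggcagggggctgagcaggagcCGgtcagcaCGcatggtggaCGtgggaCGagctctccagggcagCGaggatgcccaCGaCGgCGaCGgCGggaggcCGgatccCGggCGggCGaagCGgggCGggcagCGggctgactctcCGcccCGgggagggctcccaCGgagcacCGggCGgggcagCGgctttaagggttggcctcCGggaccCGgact
Igfbp3: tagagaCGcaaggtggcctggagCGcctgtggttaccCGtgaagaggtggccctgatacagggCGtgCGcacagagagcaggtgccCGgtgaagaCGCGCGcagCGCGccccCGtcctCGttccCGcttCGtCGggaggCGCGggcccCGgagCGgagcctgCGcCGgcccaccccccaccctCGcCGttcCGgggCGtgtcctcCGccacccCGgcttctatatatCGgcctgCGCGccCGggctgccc
These stretches hold 22 CG in Igfbp4, 26 in Igfbp7 and 32 in Igfbp3. All 9 genes matched the RefSeq table by symbol, with 13 windows of 300 bases (250 before to 50 after the start). Over 32851 such windows of 27025 genes, 94.6% held at least 1 CG and the median was 7. In the whole windows, Igfbp4 had 27 CG, Igfbp6 8 and Igfbp7 33, against 18 and 14 in the 2 windows of Igfbp2, 37 in Igfbp3 and 10 in Igfbp5. The CG counts of expressed and silent binding proteins thus overlapped. The motif TATAAA, searched on both strands, was found in 2 of the 13 windows of these genes and in 13.62% of all windows. In Igfbp4 it lies on the strand of the gene, beginning 28 bases before the start, and in Igfbp6 it lies on the opposite strand. The RefSeq start of Igfbp6, at 102144186 on chromosome 15, lies upstream of the gene start in GENCODE, and the end of its window was not found in a GENCODE transcript, so the window may not be the promoter of the counted transcript. A match of letters is a description and not a bound site.

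Among the expressed binding proteins, Igfbp4 had the smallest p of the 9 genes. It binds both IGFs and is the classical substrate of PAPP-A. Igfbp4 (ENSMUSG00000017493.12, GRCm38 chr11:99041244-99054392, plus strand) stood at 659, 618 and 649 CPM in PVITRO and at 582, 569 and 558 CPM in PTRVITRO. Every PTRVITRO library lay below every PVITRO library, with a gap of 36.0 CPM between the groups. The mean was 642 ± 21.6 CPM in PVITRO and 569.7 ± 12.1 CPM in PTRVITRO, a log2 fold change of -0.17 (SE 0.0349). In percent, the fitted difference was -11.3%, with a 95% interval from -15.9% to -6.42%. The unadjusted p was 0.000458 and the adjusted p 0.0888 (edgeR quasi-likelihood test, Benjamini-Hochberg), so Igfbp4 was not called. In bulk RNA, less RNA per cell and fewer cells that express the gene cannot be told apart. Counts of Igfbp4 ran from 9938 to 18868, so counting error was 1.00% in the shallowest library. The summed mesenchymal markers were also lower in PTRVITRO, and their part in this difference was not tested.

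Whether Igfbp4 passed the test depended on the setting. DESeq2 gave an adjusted p of 0.00604 and limma-voom 0.0828, with log2 fold changes of -0.17 in both. Without a filter on low counts the adjusted p in edgeR was 0.00177, and without PVITRO replicate 2 it was 0.0288. Leaving out any other library gave adjusted p-values from 0.0793 to 0.393 in edgeR. The log2 fold change lay between -0.20 and -0.15 in all of these fits.

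**Figure D2:**
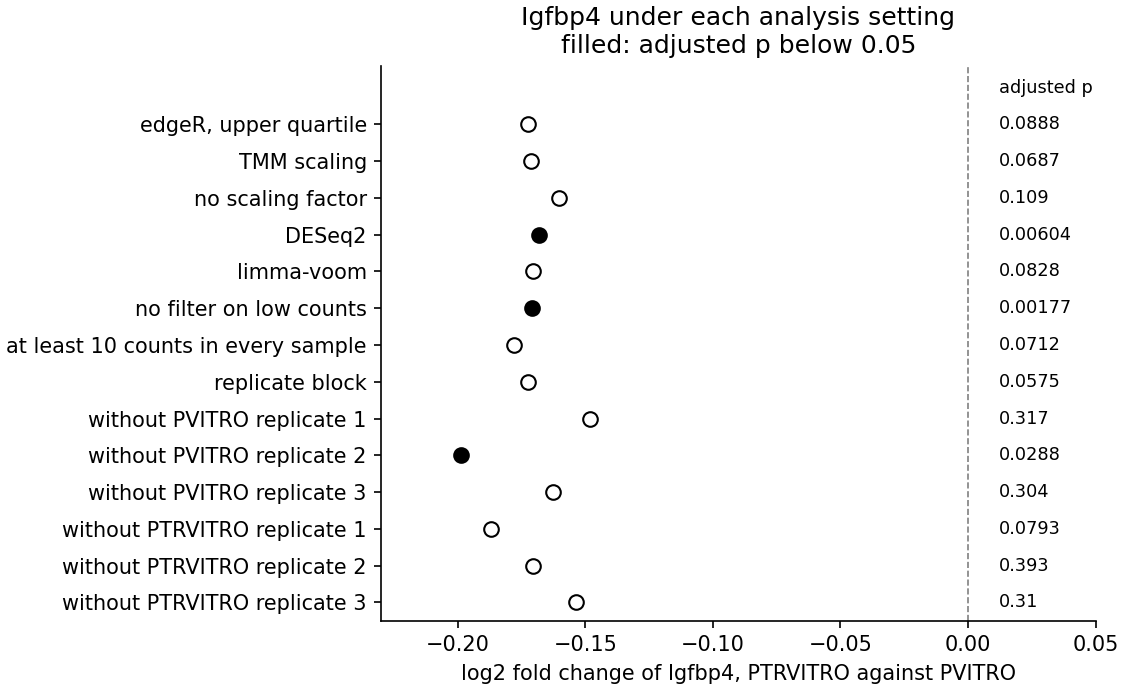
Log2 fold change of Igfbp4 (PTRVITRO against PVITRO, horizontal axis) under each analysis setting, with the adjusted p at the right and filled symbols where it is below 0.05. All 14 points lie between -0.20 and -0.15, and 3 are filled.

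Igfbp6 and Igfbp7 had values in PTRVITRO that ran a little below those of PVITRO, but their groups overlapped. Igfbp6, which prefers IGF2 over IGF1 (ENSMUSG00000023046.6, GRCm38 chr15:102144362-102149511, plus strand), had 223, 200.2 and 214 CPM in PVITRO and 215, 195 and 187 CPM in PTRVITRO. PTRVITRO replicate 1 lay within the PVITRO range, and the other PTRVITRO libraries lay below it. The means were 212 ± 11.4 and 199 ± 14.4 CPM, with a log2 fold change of -0.09 (SE 0.0555, 95% interval -0.21 to 0.03) and an adjusted p of 0.583 (edgeR). It was -0.05 without PVITRO replicate 1, -0.04 without PTRVITRO replicate 3 and -0.15 without PTRVITRO replicate 1.

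Igfbp7 binds IGFs only weakly and is a ligand of the surface protein CD93. It lies on the minus strand at GRCm38 chr5:77349240-77408041 (ENSMUSG00000036256.13). The PVITRO libraries had 157, 148 and 155 CPM and the PTRVITRO libraries 150.1, 142 and 141 CPM. Only PTRVITRO replicate 1 reached into the PVITRO range. The means were 154 ± 4.55 and 144 ± 5.07 CPM, with a log2 fold change of -0.09 (SE 0.0406), an unadjusted p of 0.0506 and an adjusted p of 0.439 (edgeR). Igfbp7 shares 85 exon bases with Polr2b on the opposite strand, whose log2 fold change was -0.03.

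All expressed binding proteins had the same order of libraries within each group. In PVITRO, replicate 1 was highest and replicate 2 lowest, and in PTRVITRO replicate 1 was highest and replicate 3 lowest. In PTRVITRO the lowest library was also the shallowest, whereas in PVITRO it was the deepest.

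**Figure D3:**
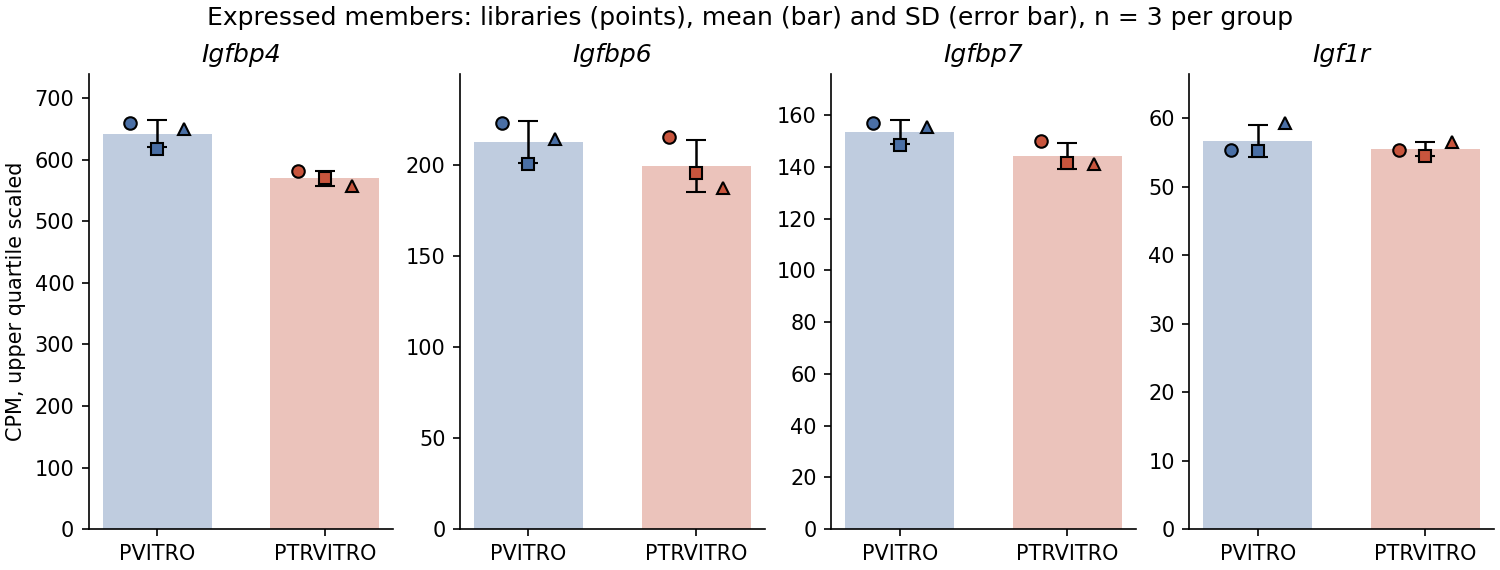
CPM of Igfbp4, Igfbp6, Igfbp7 and Igf1r in each library (points, shaped by replicate number), with the group mean as a bar from 0 and the SD as an error bar, n = 3 per group. The groups are apart for Igfbp4, with a gap of 36.0 CPM, and overlap for the others.

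Across the 5 tested genes, 0 were called by edgeR, against 0.246% of all tested genes and 0.148% called lower in PTRVITRO. At an unadjusted p below 0.05 there was 1, Igfbp4, against 11.4% of all tested genes and 6.13% for those lower in PTRVITRO, and DESeq2 called 1 member and limma-voom 0, where they called 0.781% and 0.218% of all tested genes. Igfbp4 was also the only member whose groups did not overlap, where 17.6% of all tested genes had groups apart and 9.33% were lower in every PTRVITRO library. The log2 fold change was below 0 for 4 of the 5, against 51.5% of all tested genes, and the median was -0.09 against -0.00397 over all tested genes. Without PTRVITRO replicate 1, the groups of 3 members (Igfbp4, Igfbp6 and Igfbp7) were apart, against 30.5% of all tested genes in that comparison of 3 with 2 libraries. Without PVITRO replicate 2, the groups of 2 (Igfbp4 and Igfbp7) were apart, against 32.2% of all tested genes.

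The binding protein transcripts of EMT6 cells were divided among these genes in similar amounts. On the scale of CPM per kilobase of exon, which allows genes to be compared, the level in PVITRO was 191 ± 10.3 for Igfbp6, 145 ± 4.90 for Igfbp4 and 127 ± 3.76 for Igfbp7. In PTRVITRO the levels were 179 ± 12.9, 129 ± 2.74 and 119 ± 4.196. Igfbp6 exceeded Igfbp4 by 1.29 to 1.47 times within a library, and their ranges over the 6 libraries did not overlap. Igfbp4 exceeded Igfbp7 by 1.06 to 1.15 times within each library, although the ranges of these neighbours overlapped. These ratios depend on the exon length used, here the union of all exons of a gene.

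Summed over Igfbp2 to Igfbp7, the level per length was 480, 443 and 468 in PVITRO and 449, 422 and 411 in PTRVITRO. PTRVITRO replicate 1 lay above the lowest PVITRO library, so the sums overlapped. Their means were 463 ± 18.9 and 428 ± 19.7, a difference of -7.75%. Igfbp6 made up 41.2 ± 0.565% of the sum in PVITRO and 41.9 ± 1.08% in PTRVITRO. The share of Igfbp7 was 27.4 ± 0.326% and 27.9 ± 0.383%, and that of Igfbp4 was 31.4 ± 0.239% and 30.2 ± 0.766%. For Igfbp4 the PTRVITRO shares of 29.3, 30.6 and 30.7% all lay below the PVITRO shares of 31.1, 31.6 and 31.4%. With the longest transcript as the length, shares over all libraries were 38.7 to 41.1% for Igfbp6, 32.3 to 34.7% for Igfbp4 and 26.0 to 27.2% for Igfbp7.

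**Figure D4:**
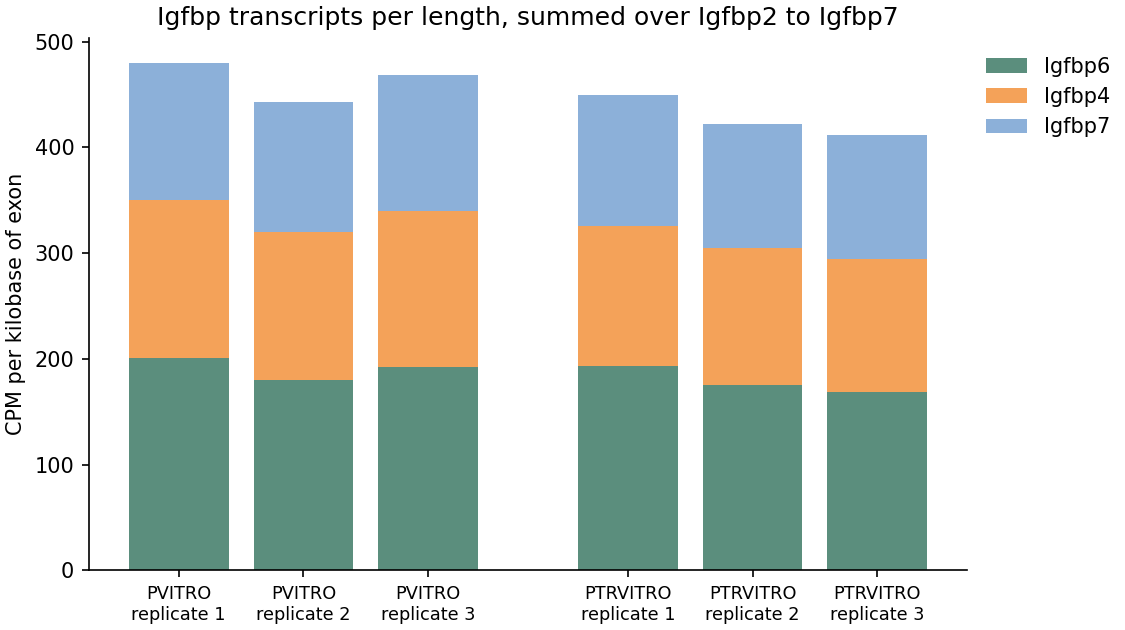
Summed transcript level of Igfbp2 to Igfbp7 in each library, in CPM per kilobase of exon, stacked by gene. Only Igfbp6, Igfbp4 and Igfbp7 contribute, and the sums run from 411 to 480.

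Neither ligand was made at an appreciable level. Igf1 (ENSMUSG00000020053.18, GRCm38 chr10:87858265-87937042, plus strand) had 6, 14 and 9 counts in PVITRO and 11, 13 and 9 counts in PTRVITRO. The groups overlapped, and the level of 0.257 to 0.505 CPM was above that of only 0.134% of the tested genes per length. Its log2 fold change of 0.18 had a 95% interval from -0.62 to 0.99 (adjusted p 0.904, edgeR), so a difference of either sign was not detectable at this depth. With a library left out it ran from 0.01 (without PVITRO replicate 1) to 0.42 (without PVITRO replicate 2). Igf2, the fetal growth factor (ENSMUSG00000048583.16, GRCm38 chr7:142650766-142666816, minus strand), had 0, 0 and 3 counts in PVITRO and 1, 2 and 2 counts in PTRVITRO. Every library was at or under the floor of 3 counts, and no fold is given. Igf2 shares 3596 exon bases with Gm49394 on the same strand, which had a count of 0, so the few reads were assigned to Igf2 alone. The insulin genes Ins1 and Ins2 were at 0 in all 6 libraries.

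Igf1r was present in every library at a level that differed little between groups. The receptor (ENSMUSG00000005533.10, GRCm38 chr7:67952827-68233668, plus strand) had 55.4, 55.2 and 59.3 CPM in PVITRO and 55.4, 54.5 and 56.6 CPM in PTRVITRO. PTRVITRO replicates 1 and 3 lay within the PVITRO range and replicate 2 just below it. Means were 56.6 ± 2.33 and 55.5 ± 1.04 CPM, with a log2 fold change of -0.03 (SE 0.0442) and an adjusted p of 0.847 (edgeR). The 95% interval ran from -0.13 to 0.07 on the log2 scale and covers only the spread between these libraries. Without PVITRO replicate 3 the log2 fold change was 0.01. Per kilobase the level was 3.37 ± 0.139 in PVITRO, and Igfbp7, the next gene above it, was 34.6 to 39.4 times higher within a library. Igf1r in turn was 66.1 to 127 times higher than Igf1.

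Of the other receptors on the list of axis genes, Insr and Igf2r had lower values in PTRVITRO without passing the test. Insrr, with 0.0334 to 0.168 CPM, had too few counts to be tested. Insr, the insulin receptor, which also forms hybrids with IGF1R, had 6.94, 7.68 and 7.24 CPM in PVITRO and 5.58, 6.53 and 5.28 CPM in PTRVITRO. The groups did not overlap, and the log2 fold change was -0.32 (SE 0.113, adjusted p 0.299, edgeR). Igf2r, which clears IGF2 and sorts lysosomal enzymes, was 33.0 ± 0.478 CPM in PVITRO and 29.2 ± 1.08 CPM in PTRVITRO, again without overlap (log2 fold change -0.18, adjusted p 0.208, edgeR). These were the only genes tested among 7 further axis genes (Igfbp1, Igfals, Ins1, Ins2, Insr, Insrr and Igf2r). With 0 called of 2, both had an unadjusted p below 0.05, as did 11.4% of all tested genes. The level of Igf2r per kilobase, 3.34 ± 0.237 over the 6 libraries, was close to that of Igf1r at 3.34 ± 0.103.

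Proteases and inhibitors that act on binding proteins showed no called gene among 9 tested of 16, with 4 log2 fold changes above 0 and 5 below, and had 0 at an unadjusted p below 0.05 in edgeR. Of all tested genes, 0.246% were called, 11.4% had such a p and 51.5% had a log2 fold change below 0. Pappa, the protease of Igfbp4, had 6.70 ± 0.782 CPM in PVITRO and 5.81 ± 0.195 CPM in PTRVITRO (log2 fold change -0.21, SE 0.116, adjusted p 0.536, edgeR), and without PVITRO replicate 2 the log2 fold change was -0.12. Its inhibitors Stc1 and Stc2 had at most 0.0428 CPM and 0, respectively. The most abundant of the list per length were Htra1, a secreted serine protease with an IGFBP-type domain, at 719 ± 10.9 and 703 ± 10.6 CPM, and the lysosomal protease Ctsd at 219.6 ± 9.001 and 219.9 ± 21.8 CPM. Adam9 had a log2 fold change of -0.06 and Mmp19 of 0.08 (edgeR adjusted p 0.570 and 0.636), and that of Mmp19 ran from 0.05 to 0.13 with a library left out.

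The signalling genes downstream of the receptor were nearly all expressed, with 31 of 33 tested and 0 called by edgeR in either direction, against 0.246% of all tested genes. Log2 fold changes were below 0 for 24 and above 0 for 7, where 51.5% of all tested genes were below 0, with a median of -0.03 against -0.00397 over all tested genes. An unadjusted p below 0.05 was found for 3 of the 31, all lower in PTRVITRO, where 11.4% of all tested genes had such a p and 6.13% were lower. Pik3r1, the regulatory subunit of PI3K, had 64.4, 62.6 and 61.5 CPM in PVITRO and 54.5, 52.9 and 48.9 CPM in PTRVITRO. The groups did not overlap, with a log2 fold change of -0.27 (SE 0.0480, adjusted p 0.0533, edgeR). Its adjusted p was 0.00754 in DESeq2 and 0.0650 in limma-voom. In edgeR it was 0.000254 without a filter on low counts, 0.0434 with a stricter filter (10 counts in every library), 0.0353 with a replicate block, 0.0480 without PTRVITRO replicate 1, and 0.0680 to 0.270 without any other library. Log2 fold changes were -0.18 for Rptor, the mTORC1 scaffold (edgeR adjusted p 0.159, or 0.0376 without a filter), and -0.14 for Foxo1, a transcription factor restrained by AKT (edgeR adjusted p 0.233). The receptor substrates Irs1 (25.4 ± 2.17 and 23.3 ± 1.49 CPM) and Irs2 (12.7 ± 1.56 and 11.7 ± 0.424 CPM) had a log2 fold change of -0.12 each, with adjusted p-values of 0.583 and 0.665 (edgeR). Without PVITRO replicate 1 that of Irs1 was -0.04, and without PVITRO replicate 2 that of Irs2 was -0.01. Akt1 and the adaptor Grb2, the most abundant per length, had log2 fold changes of -0.01 and -0.05.

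Of 12 genes known as FOXO targets, all were tested and 1 fell, against 0.148% of all tested genes called lower. At an unadjusted p below 0.05 there were 4, of which 1 was higher and 3 lower, against 11.4% of all tested genes. Cited2, a transcriptional coregulator, went from 288 ± 9.85 CPM in PVITRO to 248 ± 4.04 CPM in PTRVITRO (log2 fold change -0.21, SE 0.0363, adjusted p 0.0454, edgeR). The call was lost with TMM scaling or with no scaling factor, at adjusted p-values of 0.0594 and 0.0592, and in the fits without PVITRO replicate 1 or 3 or without any PTRVITRO replicate, at adjusted p-values from 0.0756 to 0.299 (edgeR). Txnip, an inhibitor of thioredoxin and of glucose uptake, had 224 ± 6.28 and 191 ± 8.64 CPM (log2 fold change -0.22, adjusted p 0.0600, edgeR). Its adjusted p was 0.00126 in DESeq2 and 0.0621 in limma-voom, and in edgeR it was 0.000194 without a filter on low counts, 0.0477 with that stricter filter and 0.0487 with a replicate block. Without PVITRO replicate 2 it was 0.0341, and without any other library 0.0556 to 0.270 (edgeR). Log2 fold changes of the list were above 0 for 6 and below 0 for 6, and Gadd45a, the most abundant per length, was at 639 ± 36.6 and 659 ± 21.9 CPM.

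A list around the control of Igf2 RNA held RNA-binding proteins, the chromatin protein Hmga2 and the noncoding RNA H19, and 5 of its 8 genes were tested, with 0 called and 0 at an unadjusted p below 0.05 in edgeR, against 0.246% and 11.4% of all tested genes. Igf2bp2 stood at 96.8 ± 5.16 and 95.7 ± 2.15 CPM and Igf2bp1 at 42.5 ± 3.42 and 42.2 ± 2.29 CPM, although their namesake target Igf2 had hardly a read. Igf2bp3 had 0.972 ± 0.209 and 0.722 ± 0.0871 CPM, and Hmga2 had 140.2 ± 11.9 and 142 ± 8.67 CPM. H19, the noncoding neighbour of Igf2 that is imprinted with it, was at 0 in all 6 libraries.

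Cell surface proteins that bind IGF binding proteins were tested for 7 of 7 genes, with 0 called by edgeR and 3 at an unadjusted p below 0.05, against 11.4% of all tested genes. Cd93, the receptor of Igfbp7 best known from endothelium, had 14.9, 15.6 and 16.4 CPM in PVITRO and 19.2, 18.2 and 20.1 CPM in PTRVITRO. The groups did not overlap, with a log2 fold change of 0.29 (SE 0.0681, adjusted p 0.140, or 0.0207 without a filter on low counts, edgeR), while the 5 endothelial markers summed to at most 0.385 CPM. For the integrins Itgb3 and Itga5 the log2 fold changes were 0.21 and -0.10 (edgeR adjusted p 0.390 and 0.380), and without PVITRO replicate 2 they were 0.14 and -0.07. Itgb1, the most abundant integrin of the list per length, had 746 ± 11.7 and 716 ± 21.1 CPM. Over all these pathway lists together, 64 of 81 genes were tested, 23 log2 fold changes were above 0 and 41 below, and the median was -0.03. edgeR and limma-voom each called 1 (Cited2), where they called 0.246% and 0.218% of all tested genes, and DESeq2 called 3 (Cited2, Pik3r1 and Txnip), against 0.781% of all tested genes. At an unadjusted p below 0.05 in edgeR there were 11 of the 64, 3 higher and 8 lower in PTRVITRO, against 11.4% of all tested genes.

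Genes that carry an IGFBP-type domain without being classical carriers had 1 call among 9 tested of 13, against 0.246% of all tested genes. At an unadjusted p below 0.05 there were 4 of the 9, all lower in PTRVITRO, against 11.4% of all tested genes and 6.13% for those lower. Ccn1, a matricellular integrin ligand, fell from 1147 ± 61.9 CPM in PVITRO to 819 ± 55.8 CPM in PTRVITRO (log2 fold change -0.49, SE 0.0517, adjusted p 0.00529, edgeR). It was called in each fit that left out a library, with adjusted p-values from 0.000341 to 0.0484. Its relative Ccn2 was at 257 ± 20.4 and 226 ± 10.7 CPM (log2 fold change -0.19, or -0.12 without PVITRO replicate 2, adjusted p 0.216, edgeR), and Ccn5 at 5.89 ± 0.506 and 4.14 ± 0.930 CPM (log2 fold change -0.47, adjusted p 0.289, edgeR). Without a filter on low counts their adjusted p-values were 0.00217 and 0.0498 (edgeR). For 8 of the 9 the log2 fold change was below 0, and the groups of 5 did not overlap, all lower in PTRVITRO, against 9.33% of all tested genes. The median was -0.19. Of 7 mesenchymal markers tested, the groups of 5 were apart, all lower in PTRVITRO, against the same 9.33% of all tested genes. Log2 fold changes of these markers were below 0 for 5 and above 0 for 2. The part of the markers in the difference of the IGFBP-domain genes was not tested.

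**Figure D5:**
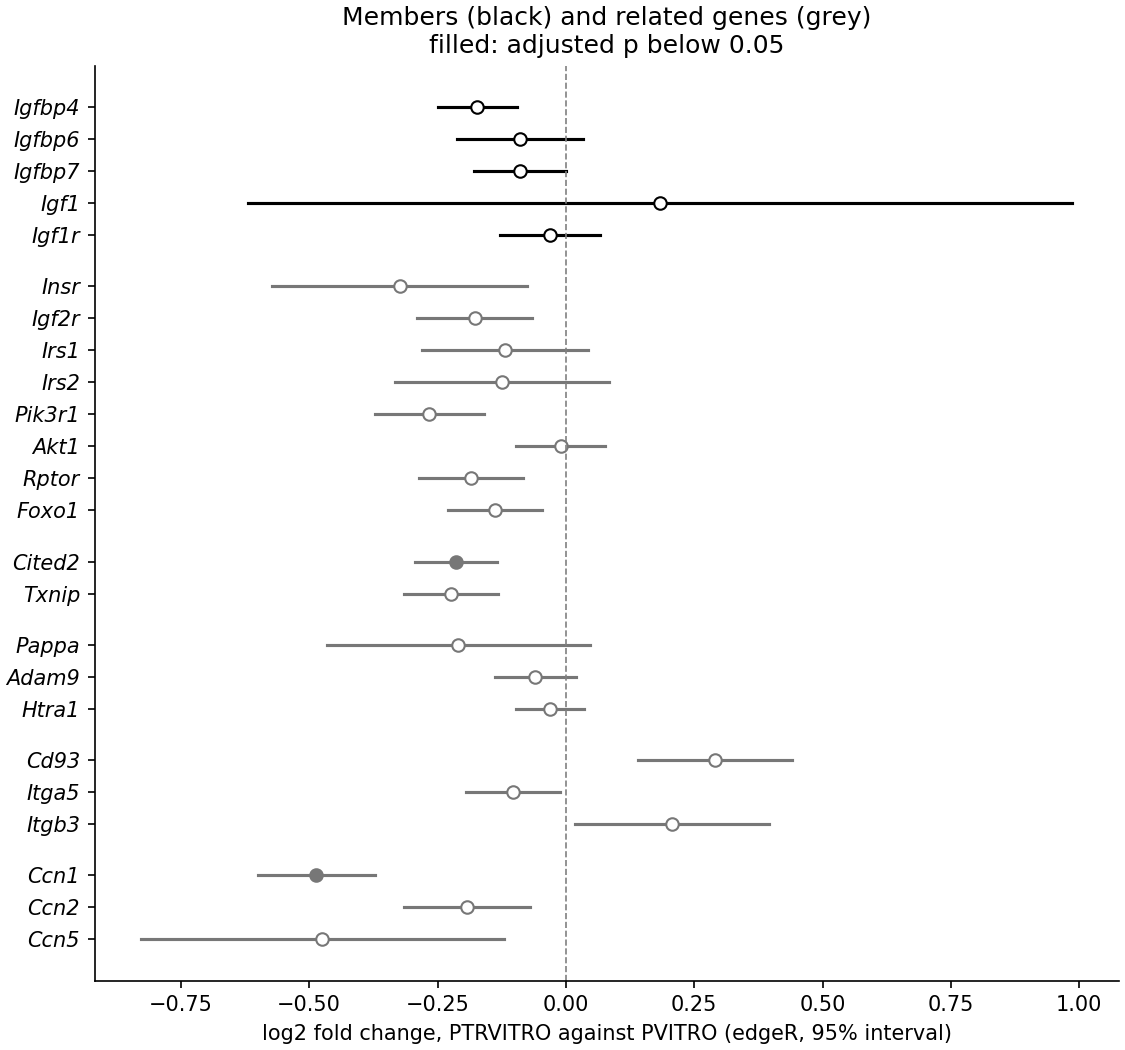
Log2 fold change (PTRVITRO against PVITRO) with its 95% interval from edgeR for the tested members (black) and related genes named in the text (grey), filled where the adjusted p is below 0.05. Ccn1 at -0.49 and Cited2 at -0.21 are filled, and every member is open.

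The genes whose levels followed Igfbp4 most closely over the 6 libraries were sought among 11803 tested genes with a mean count of at least 50. Pearson correlation of log2 CPM, given as a description over libraries that share the difference between groups, was highest for Exoc4, an exocyst subunit (0.998), Col6a2, a collagen VI chain (0.996), and Rpl18-ps1, a ribosomal pseudogene (0.995). It exceeded 0.9 for 361 of these genes. Exoc4 had the same log2 fold change as Igfbp4, -0.17, from 63.1 ± 2.07 to 55.9 ± 1.13 CPM (adjusted p 0.158, edgeR). Col6a2 fell further, from 19.4 ± 2.68 to 11.8 ± 0.610 CPM, with a log2 fold change of -0.70 (adjusted p 0.0196, edgeR). Rpl18-ps1 can share reads with its parent gene, so its level of 15.97 ± 0.898 and 13.2 ± 0.628 CPM is uncertain.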

How the data were processed

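Polyadenylated RNA of 6 EMT6 libraries (3 PVITRO, 3 PTRVITRO) was analysed. The deposited table holds expected counts per gene that the authors made from stranded libraries (TruSeq) with STAR 2.6.0a and RSEM 1.3.1 on GRCm38, after FastQC 0.11.5, with no scaling and no pooling. Between 12.5% and 13.8% of the values of a library were not whole. Whether RSEM used the strand is not given in the sources used here. Totals ran from 17757341 to 32426739 counts.

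Counts were rounded, filtered with filterByExpr (minimum count 10, minimum total 15) and scaled by the upper quartile, and groups were compared over all 14217 remaining genes with the quasi-likelihood test of edgeR 4.0.16 (R 4.3.3), Benjamini-Hochberg adjusted. Standard errors of log2 fold changes came from the F statistic. Intervals are 95% and cover the spread between libraries. As alternatives, DESeq2 1.42.0 and limma-voom (limma 3.58.1) replaced edgeR, and edgeR was run with TMM or no scaling, no filter, at least 10 counts in every library, a replicate block, and each library left out. Exon lengths came from GENCODE M21 on GRCm38, whereas the authors used M16 of the same build.

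The members and lists were chosen with earlier results of these data known. The lists were further axis genes, IGFBP-domain genes, proteases and inhibitors, signalling, genes around the control of Igf2 RNA, FOXO targets and surface receptors, besides markers of epithelial, mesenchymal, leukocyte and endothelial cells. Named were the members, Igfbp1, Igf2r, Insr, Irs1 and Irs2, called genes of the lists, in each list the 3 genes with the smallest p and the 2 with the highest level per length, and the 3 genes most like Igfbp4. Ins1, Ins2, Igfals, Stc1, Stc2, H19 and the markers named were chosen after their values were seen.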

Additional observations from a re-analysis of the deposited data

How the results depend on the processing

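The number of members called was 0 and became 1 (Igfbp4) with DESeq2, 1 without a filter on low counts, and 0 to 1 when 1 library was left out (1 without PVITRO replicate 2). For the pathway lists together 1 gene was called, against 0 with TMM scaling, 0 with no scaling factor, 3 with DESeq2, 6 when unfiltered, 3 with a stricter filter (10 counts in every library), and 0 to 2 when a library was left out (2 without PVITRO replicate 2, 1 without PTRVITRO replicate 1 and 0 without any other). For IGFBP-domain genes 1 was called, and 3 without a filter. Over all genes 35 were called, against 111 with DESeq2, 400 without a filter, 54 with the stricter filter, and 8 to 64 when a library was left out (8 without PTRVITRO replicate 3, 9 without PVITRO replicate 3, 11 without PVITRO replicate 1, 12 without PTRVITRO replicate 2, and 64 without PVITRO replicate 2). Members with groups apart numbered 1, but 2 with TMM scaling and 1 to 3 when a library was left out, against 17.6%, 17.4% and 24.8% to 32.2% of all tested genes. The causes were not tested.

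Deviations from the group mean had correlations of 0.109, 0.095 and -0.0556 between libraries of the same number. Between libraries of different numbers they ran from -0.158 to 0.0674. With 3 libraries per group these values cannot decide whether the numbers pair the libraries. A replicate block gave 3 called pathway genes and 68 called genes in all, against 1 and 35 without it.

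Single genes reversed sign near 0. Akt1 was 0.00221 with no scaling factor, and Ctsd was -0.000298 with the stricter filter. With a library left out, log2 fold changes of Igf1r lay between -0.0483 and 0.00581, of Ctsd between -0.0797 and 0.0565, of Akt1 between -0.0430 and 0.0148, of Igf2bp2 between -0.0456 and 0.0261, of Igf2bp1 between -0.0541 and 0.0534, and of Hmga2 between -0.0481 and 0.0547. For the members, sign and call were as in the report in 32 of 34 fits with other settings and 28 of 30 fits with a library left out. Igf1 had no result with the stricter filter and no adjusted p in DESeq2. Depth limits Igf1 and Igf2, and counts of 0 allow up to 3 counts.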
